A study of Mus musculus with 17 samples.

Results

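The 5 transcripts described here encode the receptor chains for GM-CSF, IL-3 and IL-5 in the mouse, namely Csf2rb2, Csf2rb, Csf2ra, Il3ra and Il5ra. They were taken by their symbols from a table of 47643 gene symbols, and all 5 were found and passed the filter on low values (at least 1 TPM in at least 3 mice). The genes were chosen on the tumor comparison of these same data, in which Csf2rb2 was higher in tumor-bearing mice, so levels with and without tumor are given for these genes as a description with no test. RNA was sequenced from the diaphragm, the main muscle of breathing, of 17 male C57BL/6J mice aged 4 months. Control mice (n = 5) carried no tumor and received mock intraperitoneal injections of albumin in saline, and Control + rFibcd1 mice (n = 5) received recombinant Fibcd1 by the same route. LLC mice (n = 3) carried tumors from cells of the cultured mouse line Lewis lung carcinoma, placed under the skin of both flanks, and received mock injections, whereas LLC + rFibcd1 mice (n = 4) carried the same tumors and received rFibcd1. rFibcd1 is a recombinant C-terminal part of mouse Fibcd1, a protein with a fibrinogen-like domain that the study describes as secreted by muscle. Only the muscle part of the diaphragm was used, and mice without tumor are called tumor-free below, in both injection groups together (n = 10), as against tumor-bearing mice (n = 7).

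Each of these receptors pairs an alpha chain, which binds its own cytokine, with a beta chain that carries the signal. Csf2ra is the alpha chain for GM-CSF, Il3ra that for IL-3 and Il5ra that for IL-5, and Csf2rb is the common beta chain that all of them share. Mice have a further beta chain, Csf2rb2, which arose by duplication and serves IL-3 alone. Neither beta chain has enzyme activity of its own, and JAK2 bound to the beta chain starts STAT5, Ras and PI3 kinase signaling. The receptors are known from neutrophils, monocytes, macrophages, eosinophils, basophils and mast cells, and Il5ra also from some B cells, and not as products of the muscle fiber.

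The beta chains are neighbours. Csf2rb2 lies at chr15:78282507-78305721 on the minus strand of GRCm38 and Csf2rb at chr15:78325752-78353847 on the plus strand, with 20030 bases and 0 annotated genes between them. Csf2ra lies at chr19:61223957-61228429 on the minus strand, Il3ra at chr14:14346275-14356011 on the plus strand and Il5ra at chr6:106710357-106749037 on the minus strand. A microRNA gene is annotated within each beta chain gene, Mir7676-1 in Csf2rb2 and Mir7676-2 in Csf2rb, and both are listed at 0 TPM in every mouse. Il3ra overlaps the antisense gene Gm48860, and the strand setting of the counting was not given in the sources used here. Reads that fall in the overlap may thus not have been told apart.

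The coding sequences of Csf2rb2 (2637 bases) and Csf2rb (2691 bases) were identical at 95.2% of 2631 aligned bases. The longest identical run of the coding sequences spanned 242 bases. Of the 4641 windows of 100 bases in the whole Csf2rb2 transcript, 334 (7.20%) also occurred in a Csf2rb transcript, so the counting could divide some reads between them. The following stretch of 120 coding bases, read from the reference genome, is shown because it is the same in both. A read that falls within it has no base by which to choose, and only the other read of its pair could tell the genes apart. It lies at chr15:78284752-78284871 (minus strand) in Csf2rb2 and at chr15:78348577-78348696 (plus strand) in Csf2rb.
Both beta chains: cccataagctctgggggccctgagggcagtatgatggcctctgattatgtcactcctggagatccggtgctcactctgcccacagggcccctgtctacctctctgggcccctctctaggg

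The next pair of sequences is shown because it is the stretch of 60 bases in which the chains differ most, with 13 mismatches in capitals, and it is by such bases that reads of one gene are told from those of the other. It lies at chr15:78294379-78294438 (minus strand) in Csf2rb2 and at chr15:78338893-78338952 (plus strand) in Csf2rb.
Csf2rb2: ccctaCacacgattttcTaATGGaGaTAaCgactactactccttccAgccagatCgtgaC
Csf2rb: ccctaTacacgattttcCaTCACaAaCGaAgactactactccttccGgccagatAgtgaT

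Values are TPM (transcripts per 1000000, which take account of gene length), and log2 differences are on the log2(TPM + 1) scale unless another is named. The depth, estimated from the steps between low values, was 50.7 to 54.6 per mouse in units of 1000000 reads. That put 68 to 1198 reads behind a value of Csf2rb2, 163 to 2551 behind Csf2rb, 276 to 1036 behind Csf2ra, 170 to 667 behind Il3ra and 0 to 226 behind Il5ra, which is thus the least certain of the 5. Skeletal muscle markers such as Acta1 and Mb summed to 49454 to 64726 TPM in a mouse, as the labelled tissue requires. The labels name no litter, cage or date, so batches could not be examined.

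Csf2rb2, the IL-3 beta chain, stood at 2.04, 2.79, 1.03, 1.21 and 1.04 TPM in the Control mice and at 2.56, 0.962, 1.28, 0.536 and 0.894 TPM in the Control + rFibcd1 mice. It stood at 7.66, 6.42 and 8.08 TPM in the LLC mice and at 4.94, 8.18, 9.82 and 3.39 TPM in the LLC + rFibcd1 mice. All tumor-bearing mice were above all tumor-free mice, and the gap lay between 2.79 and 3.39 TPM. Control averaged 1.62 ± 0.775 TPM (SD, n = 5) and LLC 7.39 ± 0.862 TPM (n = 3), whereas Control + rFibcd1 averaged 1.24 ± 0.779 TPM (n = 5) and LLC + rFibcd1 6.58 ± 2.94 TPM (n = 4). The ratio of LLC to Control means was 4.56, and tumor-bearing exceeded tumor-free mice by 1.71 on the log2 scale, or by 1.58 relative to the median gene, which itself differed by 0.13.

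Csf2rb, the shared beta chain, had a similar profile at a higher level. It stood at 3.45, 4.06, 1.89, 1.97 and 1.52 TPM in the Control mice and at 6.33, 1.79, 1.47, 0.841 and 1.83 TPM in the Control + rFibcd1 mice. It stood at 11.8, 11.0 and 12.3 TPM in the LLC mice and at 5.72, 11.5, 13.6 and 4.81 TPM in the LLC + rFibcd1 mice. Here the tumor-bearing and tumor-free mice overlapped, because Control + rFibcd1 replicate 1 lay above LLC + rFibcd1 replicates 1 and 4. Control averaged 2.58 ± 1.11 TPM (SD, n = 5) and LLC 11.7 ± 0.661 TPM (n = 3), a ratio of 4.53. Control + rFibcd1 averaged 2.45 ± 2.20 TPM (SD, n = 5) and LLC + rFibcd1 8.92 ± 4.32 TPM (n = 4).

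Of the alpha chains, Csf2ra was the most abundant, and its mice with and without tumor overlapped. It stood at 5.53, 6.99, 5.06, 5.71 and 4.05 TPM in the Control mice and at 13.4, 4.50, 3.85, 3.61 and 5.84 TPM in the Control + rFibcd1 mice. It stood at 13.5, 11.8 and 14.9 TPM in the LLC mice and at 7.57, 14.3, 12.3 and 7.93 TPM in the LLC + rFibcd1 mice. Control + rFibcd1 replicate 1 was thus as high as the LLC mice, and the other tumor-free mice were below every tumor-bearing mouse. The ratio of LLC to Control means was 2.45 for this GM-CSF receptor chain.

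Il3ra, which completes the IL-3 receptor, stood at 4.11, 4.92, 3.81, 4.16 and 3.50 TPM in the Control mice and at 4.99, 3.41, 2.30, 2.74 and 3.86 TPM in the Control + rFibcd1 mice. It stood at 9.03, 7.64 and 7.03 TPM in the LLC mice and at 4.50, 6.59, 7.04 and 5.65 TPM in the LLC + rFibcd1 mice. LLC + rFibcd1 replicate 1 was the only tumor-bearing mouse within the range of the tumor-free mice. With a ratio of LLC to Control means of 1.93, this was the smallest ratio of the 5 chains.

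Il5ra was the lowest of the chains. It stood at 0.846, 0.810, 0.257, 0.291 and 0 TPM in the Control mice and at 1.76, 0.198, 0, 0.0629 and 0.339 TPM in the Control + rFibcd1 mice. It stood at 2.53, 1.70 and 2.21 TPM in the LLC mice and at 0.316, 1.25, 1.81 and 0.175 TPM in the LLC + rFibcd1 mice. Of the tumor-free mice 1 reached 1 TPM, as against 5 of the tumor-bearing mice, so Il5ra passed the filter mainly through the tumor-bearing mice. The ratio of LLC to Control means was 4.87 and that of LLC + rFibcd1 to Control means 2.02.

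**Figure D1:**
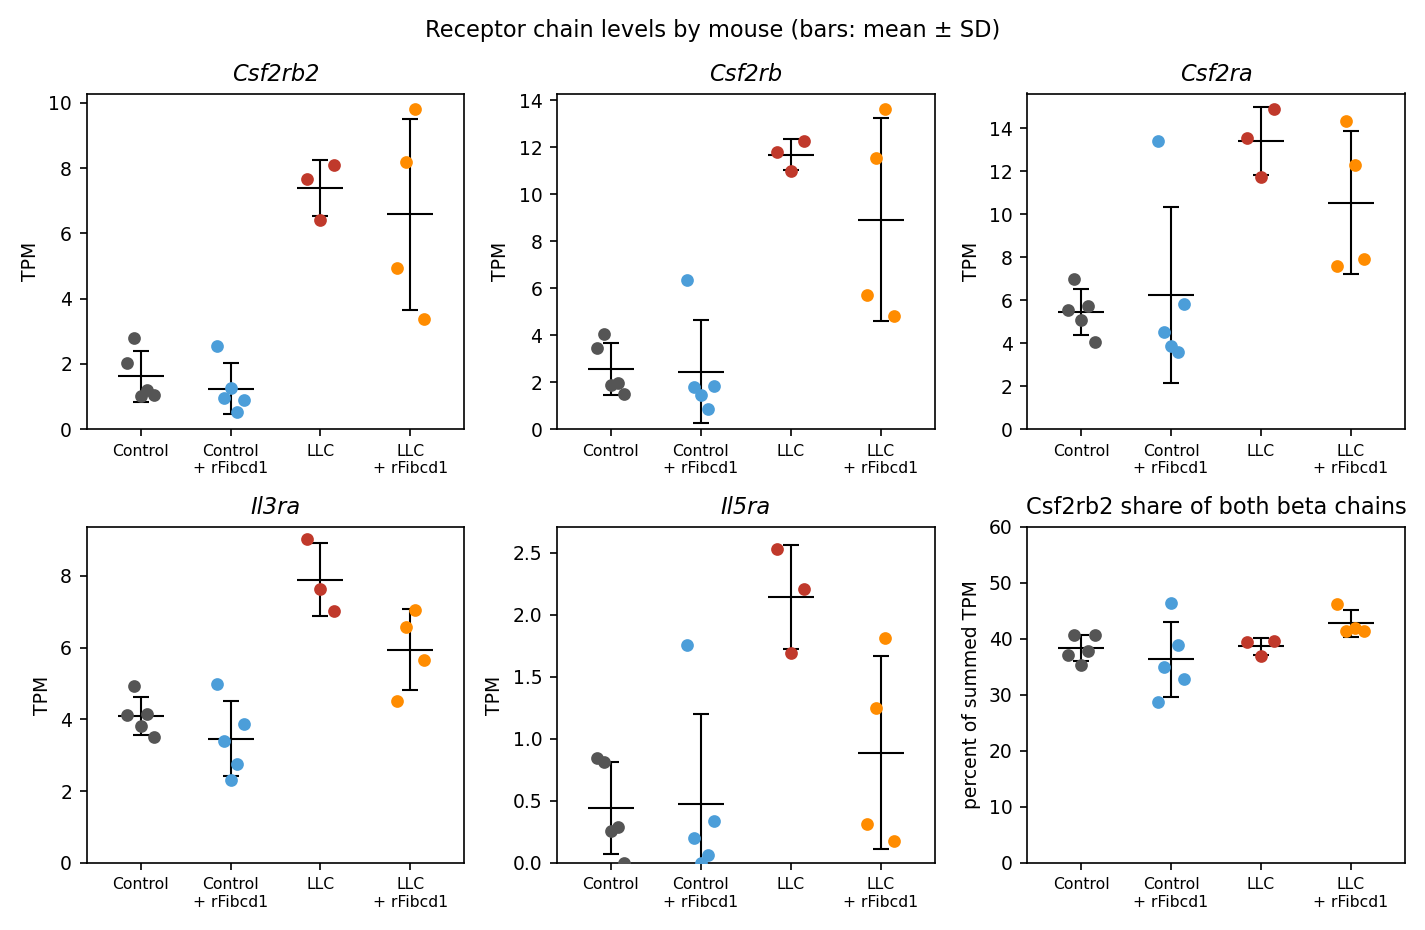
TPM of the 5 receptor chains, and the percent of the summed TPM of both beta chains that Csf2rb2 holds, in each mouse (points) of the 4 groups, with the group mean and SD (bars). For Csf2rb2 all tumor-bearing mice lie above 2.79 TPM, the highest tumor-free value, and for the other chains all tumor-bearing and all tumor-free mice overlap.

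Of the 5 chains, 1 (Csf2rb2) had no overlap between tumor-bearing and tumor-free mice, with higher values in the former, as did 1.74% of the 13305 genes tested. Since this contrast was used to choose the genes, nothing is read from that count. In LLC against Control alone, all 5 chains were higher without overlap, as were 33.6% of the genes tested. Relative to the median gene, the log2 difference of tumor-bearing from tumor-free mice was 1.57 for Csf2rb, 0.81 for Csf2ra, 0.57 for Il3ra and 0.58 for Il5ra. The pseudocount lowers the difference of the scarce Il5ra most, which stood at 1.68 with 0.1 TPM added in place of 1, as against 0.71 before the median is taken off.

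The order of the chains differed between the tumor-free and the tumor-bearing groups. In Control the means fell from Csf2ra through Il3ra, Csf2rb and Csf2rb2 to Il5ra, and every neighbour in that order was the higher in 5 of 5 mice, although only the ranges of Csf2rb2 and Il5ra did not overlap. In LLC the order was Csf2ra, Csf2rb, Il3ra, Csf2rb2 and Il5ra, so Csf2rb stood above Il3ra in 3 of 3 mice, with separate ranges, and Il3ra above Csf2rb2 in 2 of 3. In LLC + rFibcd1 Csf2rb2 stood above Il3ra in 3 of 4 mice, and those neighbours did not differ beyond their spread. Both beta chains together made up 28.6% ± 5.62 (SD) of the TPM of all 5 chains in the 5 Control mice and 25.2% ± 5.76 in the 5 Control + rFibcd1 mice, as against 44.9% ± 1.08 in the 3 LLC mice and 45.8% ± 6.29 in the 4 LLC + rFibcd1 mice.

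The chains also varied together from mouse to mouse within the groups. Control + rFibcd1 replicate 1 was the highest tumor-free mouse for Csf2rb, Csf2ra, Il3ra and Il5ra and ranked 2 for Csf2rb2. LLC + rFibcd1 replicates 1 and 4 were the lowest tumor-bearing mice for all 5 chains, with ranks 6 and 7 of 7. After subtraction of each group mean, Pearson's r of log2(TPM + 1) over the 17 mice was 0.94 between Csf2rb2 and Csf2rb, a pair that shares reads, 0.97 between Csf2rb and Il5ra, 0.92 between Csf2rb and Csf2ra and 0.63 between Csf2rb2 and Il3ra, the highest and lowest of the 10 pairs being 0.97 and 0.63. These are descriptions over mice, the genes of a mouse share its library and depth, and no test was made.

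**Figure D2:**
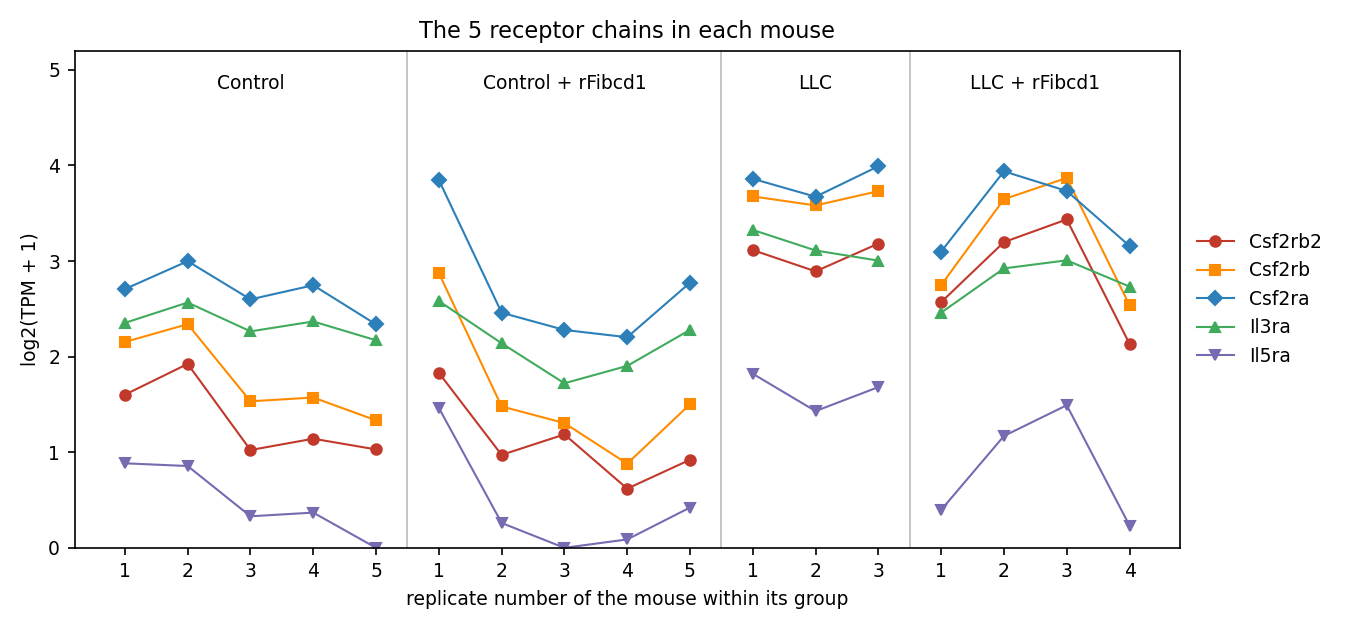
log2(TPM + 1) of the 5 receptor chains (vertical axis) in each of the 17 mice (horizontal axis, by group and replicate number). Lines join the points of a group for reading only, as replicates have no order. The chains peak together in Control + rFibcd1 replicate 1 and are low together in LLC + rFibcd1 replicates 1 and 4.

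Among the genes most like Csf2rb2 in this variation within groups were genes of ribosomal proteins. Rps19 had r = 0.96 over 17 mice, with 0.96 in the 10 tumor-free and 0.96 in the 7 tumor-bearing mice, and Rps24 and Rpl8 had r of 0.95 each. Ribosomal protein genes have many near-identical pseudogene copies, so their counts are themselves uncertain. The genes most like Csf2rb were different ones, namely Cyp4f18 (r = 0.99), AB124611 (0.99), Ncf1 (0.98), AI467606 (0.98) and Cytip (0.98). Ncf1 encodes a subunit of the phagocyte NADPH oxidase, and its level averaged 3.68 TPM in Control and 12.6 TPM in LLC.

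The question whether rFibcd1 altered the receptor chains could be tested, since the split of the mice by injection had not been used to choose them. In tumor-bearing mice the mean difference of LLC + rFibcd1 from LLC was below 0 for all 5 chains, and none passed the test (limma, Benjamini-Hochberg over 13305 genes), where 0.113% of all genes tested were called. At an unadjusted p under 0.05 there was 1 chain, Il5ra, as against 22.7% of all genes, and Dunn's test called 0. The median gene also fell, by 0.11. Csf2rb2 differed by -0.23 ± 0.32 (SE), with a 95% interval of -0.91 to 0.45 and an adjusted p of 0.643 from limma. Csf2rb differed by -0.46 ± 0.41, with an interval of -1.34 to 0.41 and an adjusted p of 0.455 from limma.

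The alpha chains differed by -0.36 for Csf2ra (interval -1.04 to 0.32, adjusted p = 0.456 by limma), -0.37 for Il3ra (interval -0.74 to 0.0097, adjusted p = 0.226) and -0.82 for Il5ra (interval -1.58 to -0.064, adjusted p = 0.209). Il5ra was thus the chain with the largest difference, and LLC averaged 2.15 ± 0.422 TPM (SD, n = 3) as against 0.889 ± 0.779 TPM (n = 4) for LLC + rFibcd1. LLC + rFibcd1 replicate 3, at 1.81 TPM, lay within the range of the LLC mice, and replicates 1 and 4 lay at the level of tumor-free mice. Without LLC + rFibcd1 replicate 4 the difference of Csf2rb2 was 0.0045, so its direction rested on that mouse, and that of Csf2rb was -0.24. When a mouse was left out the difference ranged from -0.68 to -0.24 for Csf2rb and from -0.51 to -0.23 for Csf2ra, the latter value being that without LLC + rFibcd1 replicate 1. With 0.1 TPM added in place of 1, the difference of Il5ra was -1.59. For each alpha chain the interval reached a difference as large as that between tumor-bearing and tumor-free mice.

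In tumor-free mice rFibcd1 made no detectable difference to the chains at this sample size. Control + rFibcd1 differed from Control by -0.24 for Csf2rb2 (95% interval -0.80 to 0.32), by -0.18 for Csf2rb (-0.90 to 0.55), by 0.035 for Csf2ra (-0.53 to 0.60), by -0.22 for Il3ra (-0.53 to 0.092) and by -0.041 for Il5ra (-0.67 to 0.59). No chain was called (adjusted p of 0.927 to 0.985, limma), none had an unadjusted p under 0.05 (4.39% of all genes did), and 0% of all genes tested were called in this comparison. The interaction of tumor and rFibcd1, which asks whether rFibcd1 acted differently with and without tumor, was 0.0091 for Csf2rb2 and -0.78 for Il5ra, the lowest of the chains. None of the chains was called there (adjusted p of 0.660 to 0.996, limma), none had an unadjusted p under 0.05 (8.58% of all genes did), and 0% of all genes were called.

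**Figure D3:**
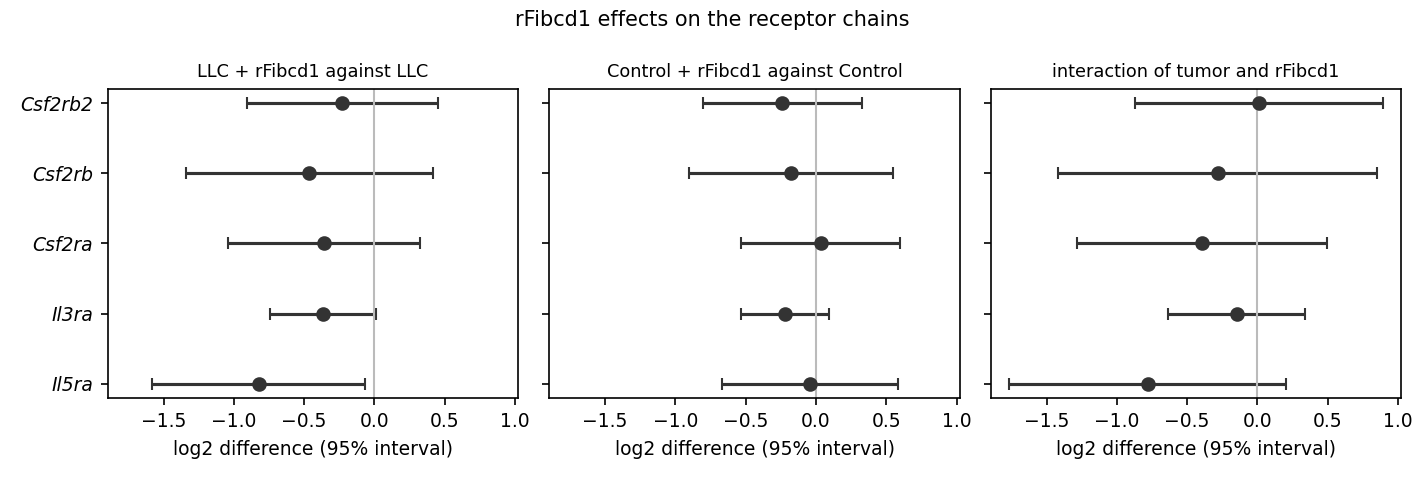
Effect of rFibcd1 on each receptor chain as a difference of log2(TPM + 1), with 95% intervals, in tumor-bearing mice, in tumor-free mice and as the interaction of both. Of the 15 intervals, that of Il5ra in tumor-bearing mice (-1.58 to -0.064) leaves out 0.

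The balance between the beta chains was compared as the share of their summed TPM held by Csf2rb2. Control mice had a share of 38.3% ± 2.35 (SD, n = 5), Control + rFibcd1 mice 36.4% ± 6.72 (n = 5), LLC mice 38.7% ± 1.52 (n = 3) and LLC + rFibcd1 mice 42.8% ± 2.39 (n = 4). The share was thus near the same level with and without tumor in mock-injected mice. It was 4.09 percentage points higher in LLC + rFibcd1 than in LLC, the mice of the groups did not overlap, and the exact permutation test gave p = 0.0286, the smallest that 35 splits can give (two-sided, n = 3 and 4). Of the genes tested across the table, 5.26% were higher without overlap in this comparison. That figure is for the TPM of single genes and not for shares of gene pairs. In tumor-free mice the same difference was -1.96 points, with an exact p of 0.579, and adjusted over both comparisons the p were 0.0571 and 0.579 (exact permutation test). With 3 and 4 mice the first could pass 0.05 after adjustment only if the other comparison did too, so its not passing says little. As a share of estimated reads the difference in tumor-bearing mice was 3.63 points. The summed TPM of both chains differed by -0.39 on the log2 scale (exact p = 0.4, permutation test).

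The ligands of these receptors were at or near 0. Csf2, which encodes GM-CSF, reached at most 0.194 TPM in any mouse and Il5 at most 0.458 TPM, and Il3 was at 0 in all 17 mice. None of the 3 passed the filter. For Il5 the means were 0.333 TPM in Control, 0.235 TPM in Control + rFibcd1, 0.131 TPM in LLC and 0.274 TPM in LLC + rFibcd1. These are levels in the diaphragm only, and cytokine that reaches it with the blood is not measured by them.

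The signaling genes downstream were compared between tumor-bearing and tumor-free mice, and 19 of 32 tested rose and 1 fell (limma, adjusted p under 0.05), where 38.8% of all genes tested rose and 5.98% fell. In LLC against Control alone 17 of the 32 rose and 0 fell, as against 29.7% and 6.02% of all genes. Of the 16 transducers, 9 rose, 1 fell and 6 did not pass, with a median difference of 0.24 against 0.13 over all genes. Stat3, a transcription factor that cytokine receptors activate, rose by 0.37 ± 0.0613 (SE, adjusted p = 0.00114), and the adaptor Grb2 by 0.26 ± 0.0644 (adjusted p = 0.00639), a call that Grb2 lost under median-ratio scaling (adjusted p = 0.0985). Pik3r1, the regulatory subunit of PI3 kinase, fell by 0.28 ± 0.0853 (adjusted p = 0.0174), a call lost without LLC + rFibcd1 replicate 3 (adjusted p = 0.0517) or replicate 4 (0.0585) and by a rank test of the Dunn type (0.102). Pik3r1 averaged 16.9 TPM in Control and 17.5 TPM in LLC, as against 18.1 TPM in Control + rFibcd1 and 12.2 TPM in LLC + rFibcd1, so its lower level was that of the LLC + rFibcd1 mice, and LLC did not differ from Control beyond the spread (0.042, adjusted p = 0.813 by limma). Jak2, Stat5a and Stat5b, the core of the pathway, did not pass the test. Jak2 ranged from 17.5 to 21.9 TPM in Control, from 16.0 to 21.6 TPM in Control + rFibcd1, from 16.5 to 21.1 TPM in LLC and from 14.0 to 16.8 TPM in LLC + rFibcd1.

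Of the 8 inhibitors, 3 rose and 5 did not pass, a share of risers near the 38.8% of all genes. Ptpn6, which encodes the phosphatase SHP-1 of blood cells, rose by 1.44 ± 0.422 (adjusted p = 0.0139), and Inpp5d, the lipid phosphatase SHIP1, by 0.82 ± 0.191 (adjusted p = 0.00514). Socs3 rose by 0.69 ± 0.237 (adjusted p = 0.0284), but missed the threshold under both other scalings, under quantile normalization and without LLC replicate 2, LLC replicate 3 or LLC + rFibcd1 replicate 2 (adjusted p of 0.0535 to 0.0983 in these fits). Cish and Socs2, which STAT5 is known to induce, did not pass, and Cish ranged from 2.11 to 40.6 TPM among the Control mice alone. Ptpn6 and Socs3 also missed the threshold by the rank test (adjusted p = 0.0549 for both).

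Of the 9 target genes, 8 were tested, 7 rose and Bcl2l1 did not pass, with a median difference of 0.64. Bcl2a1d, a survival gene of the Bcl2 family, rose by 1.19 ± 0.254 (adjusted p = 0.00356, or 0.0549 by the rank test) and its close paralog Bcl2a1b, with which it can share reads, by 1.40 ± 0.362 (adjusted p = 0.00812). Pim1, a kinase gene that STAT5 is known to induce, rose by 0.79 ± 0.198 (adjusted p = 0.00734). In LLC + rFibcd1 against LLC 0 of the 32 signaling genes were called by limma, while 12 had an unadjusted p under 0.05, as did 22.7% of all genes.

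Other chains of the class I cytokine receptors, the family to which the 5 belong, were set beside them. Of 21 tested among 29 listed, 13 rose, 1 fell and 7 did not pass, with a median difference of 0.53, where 38.8% of all genes rose and 5.98% fell. Of the 13, 1 was tested only through tumor-bearing mice. Il4ra, the chain for IL-4 and IL-13, rose by 1.03 ± 0.123 (adjusted p = 0.000252), Osmr, the oncostatin M receptor, by 0.53 ± 0.0758 (adjusted p = 0.000539), and Csf3r, the G-CSF receptor of neutrophils, by 1.34 ± 0.236 (adjusted p = 0.00151). Cntfr, the receptor chain for ciliary neurotrophic factor in muscle, fell by 1.02 ± 0.189 (adjusted p = 0.00194). Control averaged 25.9 ± 9.38 TPM of it (SD, n = 5) and LLC 12.5 ± 2.48 TPM (n = 3).

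**Figure D4:**
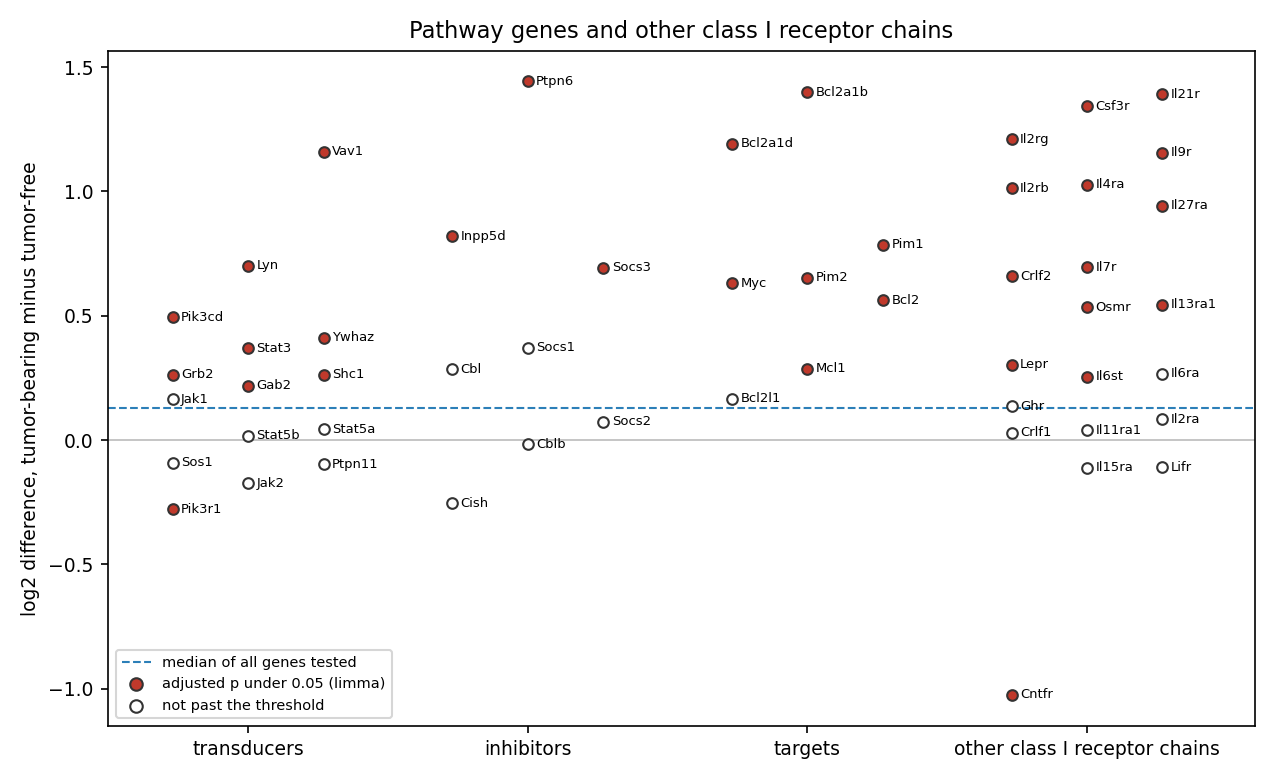
Log2 difference of tumor-bearing from tumor-free mice (vertical axis) for tested genes of the signaling lists and of the other class I receptor chains (horizontal axis, points spread sideways for reading). Filled points had an adjusted p under 0.05 in limma, and the dashed line is the median of all genes, 0.13. Most called genes lie above the line, and Cntfr lies lowest at -1.02.

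Markers of other cell types were compared between tumor-bearing and tumor-free mice in the same way, where 38.8% of all genes rose and 5.98% fell, and in bulk tissue fewer cells of a type and less RNA per cell cannot be told apart. Of the blood cells known to carry these receptors, the tested markers of neutrophils and B cells and most of those of monocytes and macrophages were higher with tumor. Those of mast cells, basophils and eosinophils were not called. The 12 neutrophil markers, led by S100a9 and S100a8, summed to 5.17 to 17.8 TPM in Control and 52.3 to 115 TPM in LLC, and the 7 that passed the filter rose. All 12 summed to 52.3, 115 and 92.6 TPM in the LLC mice and to 95.3, 222, 74.1 and 59.0 TPM in the LLC + rFibcd1 mice, and these groups overlapped. Monocyte and macrophage markers, led by C1qb and C1qa, summed to 156 to 279 TPM in Control and 381 to 464 TPM in LLC, and 8 of 11 tested rose. Their sums of 106 to 442 TPM in Control + rFibcd1 and 193 to 436 TPM in LLC + rFibcd1 overlapped. B cell markers, led by Cd79a and Cd79b, summed to 2.53 to 97.8 TPM in Control and 224 to 282 TPM in LLC. Their sums of 3.63 to 139 TPM in Control + rFibcd1 and 18.5 to 278 TPM in LLC + rFibcd1 overlapped. Of the B cell markers 7 of 7 rose, as did the 7 T cell markers and the 4 of 7 dendritic cell markers that passed. Some of these reached 1 TPM in fewer than 3 tumor-free mice and so were tested only through the tumor-bearing mice in which they were high, namely 3 of the neutrophil, 4 of the T cell, 1 of the dendritic cell and 1 of the monocyte and macrophage markers that rose, so their share is not to be read against that of all genes. Without them 4 neutrophil, 3 T cell, 3 dendritic cell and 7 monocyte and macrophage markers rose. Of the endothelial markers 4 of 6 rose, of the skeletal muscle markers 6 of 10 fell, and of the liver and fat and the mesothelium markers 1 of 5 and 1 of 4 rose. In LLC against Control alone, where 29.7% of all genes rose and 6.02% fell, the calls were 1 of 6 endothelial, 2 of 4 dendritic cell, 0 of 5 liver and fat and 0 of 4 mesothelium markers higher and 5 of 10 skeletal muscle markers lower. The neutrophil, monocyte and macrophage, B cell and T cell counts were the same there. Over all lists 45 marker genes were called in either direction, as against 24 without LLC replicate 3.

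Mast cell and basophil markers, led by Mcpt4 and Tpsb2, summed to 38.1 to 58.4 TPM in Control and 20.5 to 66.1 TPM in Control + rFibcd1. They summed to 66.6 to 69.9 TPM in LLC and 26.8 to 67.2 TPM in LLC + rFibcd1. Between tumor-bearing and tumor-free mice 0 of 7 tested were called by limma, with 0 at an unadjusted p under 0.05. In LLC + rFibcd1 against LLC 0 were called and 4 of 7 had an unadjusted p under 0.05, as did 22.7% of all genes. Of the 6 eosinophil markers, Ear6 was at 0 in every mouse, Epx and Ccr3 were below 0.1 TPM in every mouse and Siglecf reached at most 0.222 TPM. Prg3 did not pass the filter either, with 0 to 0.251 TPM in Control, 0 to 0.0872 TPM in Control + rFibcd1, 0.380 to 0.840 TPM in LLC and 0 to 1.35 TPM in LLC + rFibcd1. Prg2, the only eosinophil marker tested, averaged 1.96 TPM in Control, 1.15 TPM in Control + rFibcd1, 7.21 TPM in LLC and 2.14 TPM in LLC + rFibcd1. Tumor-bearing exceeded tumor-free mice by 1.03 (adjusted p = 0.0530 by limma), and LLC exceeded Control by 1.77 (adjusted p = 0.0365), so of these comparisons only the latter called Prg2.

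The mice that stood apart for the receptor chains stood apart for markers too. Control + rFibcd1 replicate 1 had the highest tumor-free sums of monocyte and macrophage markers, 442 TPM, and of B cell markers, 139 TPM. LLC + rFibcd1 replicates 1 and 4 had the lowest tumor-bearing sums of both, with 193 and 213 TPM of monocyte and macrophage markers and 18.5 and 21.5 TPM of B cell markers, whereas their neutrophil sums of 95.3 and 59.0 TPM were above those of 5 of 5 Control mice. Among the tumor-free mice Control + rFibcd1 replicate 3 had the highest neutrophil sum, 81.5 TPM, within the range of the tumor-bearing mice, while Csf2rb2 and Csf2rb stood at 1.28 and 1.47 TPM in that mouse. The part of these cells in the level of the receptor chains was not tested.

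**Figure D5:**
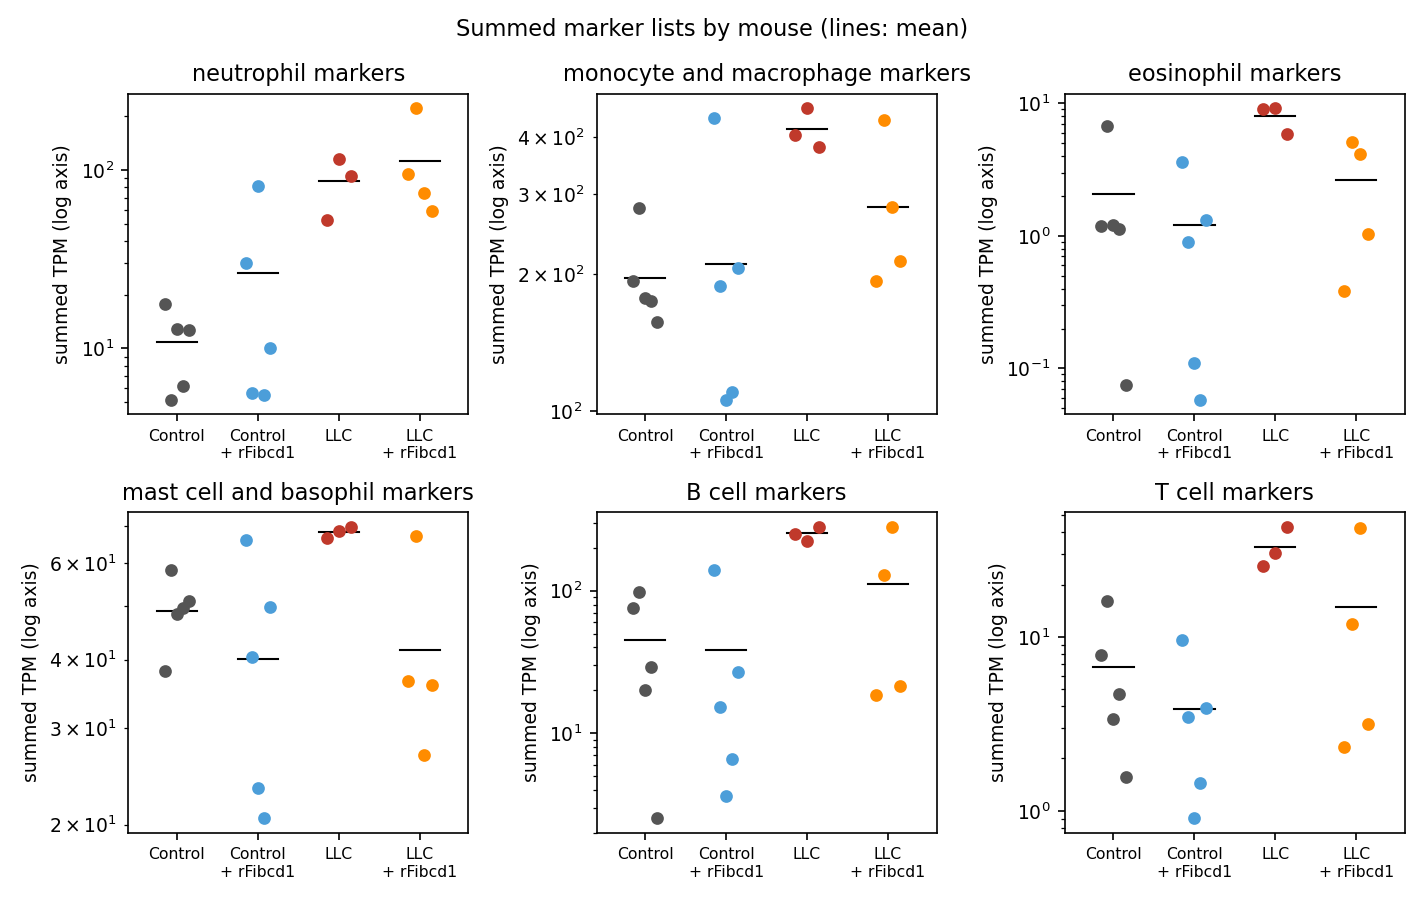
Summed TPM of the marker lists of 6 blood cell classes in each mouse (points, log axis), with the group mean (line). Neutrophil sums are 52.3 TPM or more in every tumor-bearing mouse and 81.5 TPM in 1 tumor-free mouse, Control + rFibcd1 replicate 3, and the B cell sums of the LLC + rFibcd1 mice range from 18.5 to 278 TPM.

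Promoter windows from RefSeq (GRCm38.p6, 250 bases before to 50 after the start) were at hand for 4 of the 5 genes, Csf2rb excepted, and were searched on both strands for letters that blood cell factors are known to bind. AGGAAGT (PU.1) was found in Csf2rb2 and Il3ra and in 9.35% of all 32851 windows, TTCNNNGAA (STAT5) in Csf2rb2 and 8.30% of all, TTGCNNAA (C/EBP) in Il3ra and 10.8% of all, AGATAA (the letters of GATA factors) in Il5ra and 11.2% of all, and CCGGAAGT (other ETS factors) in none of the 4 and 3.89% of all. In Il3ra the PU.1 and C/EBP letters overlap by 1 base. The matches other than the C/EBP letters of Il3ra are printed with the letters in capitals, as descriptions of the windows only. Those C/EBP letters lie within the printed stretch of Il3ra and, apart from the shared base, are in lower case. The coordinates are those of the printed stretches, and distances are counted from the RefSeq start. For Csf2rb2 the STAT5 letters begin 15 bases before the start, in the stretch chr15:78305717-78305746 (minus strand). Its PU.1 letters, on the opposite strand, begin 28 bases after the start, in the stretch chr15:78305676-78305705 (minus strand). For Il3ra the PU.1 letters begin 140 bases before the start, in the stretch chr14:14346344-14346373 (plus strand). The gene span given above for Il3ra begins before this RefSeq start, so the stretch lies inside that span. For Il5ra the GATA letters begin 74 bases before the start, in the stretch chr6:106749094-106749123 (minus strand).
Csf2rb2, STAT5 letters: gtgtccacaaTTCTGAGAAgcaagcaaagc
Csf2rb2, PU.1 letters: gggcactggcaACTTCCTcaatctgctctc
Il3ra, PU.1 letters: cccactatctcAGGAAGTtgctcaatctcg
Il5ra, GATA letters: ggttggtagggcAGATAAatacctttttct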

How the data were processed

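Diaphragm RNA of 17 mice was sequenced, and the titles of the samples gave their group and replicate number. The authors trimmed and filtered paired reads, aligned them to GRCm38 and obtained gene values in CLC Genomics Workbench. The deposited unit is TPM, scaled by the authors to a sum of 1000000 per sample. The labels and the study's methods name different library kits and sequencers.

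The members and all gene lists were chosen with earlier results of these data known. limma 3.58.1 (R 4.3.3) was run on log2(TPM + 1) for the 13305 genes that reached 1 TPM in 3 samples or more, with 1 model of 4 groups (13 residual degrees of freedom), an empirical Bayes trend, two-sided tests and Benjamini-Hochberg adjustment at 0.05. It replaced the Kruskal-Wallis and Dunn tests of the study, whose normal approximation is poor for groups of 3 to 5. The fit was tested on simulated data. Each sample was taken as 1 mouse, as the titles number them. Named genes were the 5 members, the 3 smallest p in each direction per pathway list among called genes, the ligands, markers near 0, the 2 most abundant markers per list, and the 5 genes most like each beta chain. Other genes named with values (Ncf1, Jak2, Cish, Bcl2l1, Prg2, Siglecf) were chosen after their values were seen. A few genes that this rule takes in are not reported here.

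Depth was estimated from the spacing of low TPM values with GENCODE vM21 exon lengths (94.6% of symbols matched), in which 80.8% to 83.6% of low values were whole reads within 0.02, as against 4.0% for random values. Mitochondrially encoded genes held 41.3% to 50.4% of TPM. Alternatives were the pseudocount, the filter, scaling, a replicate block, leaving out each mouse, and Dunn's test.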

Additional observations from a re-analysis of the deposited data

Results flagged for a closer look

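Control + rFibcd1 replicate 1 stood far from the other 4 mice of its group for 3 receptor chains, with 6.33 TPM of Csf2rb (next mouse 1.83 TPM), 13.4 TPM of Csf2ra (next mouse 5.84 TPM) and 1.76 TPM of Il5ra (next mouse 0.339 TPM). Its gap to the nearest mouse exceeded Dixon's 95% critical value. In all 15 groups of values were examined, 3 stood out, and chance alone would mark about 1 in 20. The same mouse had the highest tumor-free sums of monocyte and macrophage and of B cell markers (442 and 139 TPM), and their part in its values was not tested.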

How the results depend on the processing

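No receptor chain was called for rFibcd1 under any alternative run. For the tumor contrast, fewer genes were called by Dunn's test, with 13 of the signaling genes (20 by limma), 9 other class I chains (14) and 24 marker genes (45). Replicate numbers do not pair these mice: of 22 same-numbered pairs 4 correlated over 0.1 (r of -0.46 to 0.49), and 1 of 17 samples correlated best with its own number. With the replicate block 9 class I chains and 23 marker genes were called. Leaving out a mouse gave 24 to 50 marker genes, the lowest without LLC replicate 3. The Csf2rb2 share difference was 2.90 to 4.60 points when a mouse was left out (exact p of 0.0667 to 0.2), where the mice left cannot reach 0.05. The highest p, 0.2, was without LLC replicate 2, with a difference of 3.22 points (exact permutation test). Leaving out LLC replicate 1 or 3, with as many mice left, gave 0.0667 by that test. The number of mice alone thus does not account for the 0.2. The tumor difference of Csf2rb2 was 2.27 with a pseudocount of 0.1 TPM and 1.62 to 1.84 when a mouse was left out.

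Some directions turned when a mouse was left out or under another setting, and none of these results was called. In LLC + rFibcd1 against LLC, Csf2rb2 was -0.43 to 0.0045 when a mouse was left out, the highest without LLC + rFibcd1 replicate 4. In Control + rFibcd1 against Control, leaving out a mouse moved Csf2rb from -0.49 to 0.0037, Csf2ra from -0.25 to 0.16 and Il5ra from -0.30 to 0.071, and quantile normalization put Il5ra at 0.051. In the interaction, leaving out a mouse moved Csf2rb2 from -0.19 to 0.24 and Csf2rb from -0.51 to 0.033. Dunn's test gives no interaction, and a 2-group rank comparison stood in for the pooled tumor contrast. Depth limits Il5ra most, with 0 reads in 2 mice.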
